A study of Danio rerio with 6 samples.

Results

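The genes of cytokine signalling through the JAK-STAT pathway were examined in dissected guts of zebrafish larvae 1 h after injection of the cytokine IL-26. All larvae were WT and were injected at 5 days post fertilization (5-dpf). The treated larvae received rzIl26, a recombinant form of the zebrafish IL-26 protein, and the control larvae received BSA (bovine serum albumin). Per the study, both proteins were injected into the gut and the swim bladder, so injection itself was common to both groups, and no uninjected larvae were part of the comparison. Each library was made from a pool of 10 to 15 guts, with 3 biological replicates for rzIl26 and 3 for BSA, and values per larva were therefore not measured. The question was which genes of the pathway differed in transcript level early after IL-26 was added.

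The set held 47 genes, chosen by symbol with earlier results of these data known. They were cytokine receptors, Janus kinases, STAT transcription factors, SOCS proteins, phosphatases and PIAS proteins, and known STAT target genes. Of these, 41 had a row in the table of counts per RefSeq transcript, out of 14570 genes with such a row. No row carried the symbols *prlra*, *jak3*, *tyk2*, *cish*, *pias1a* or *pias1b*, and these genes were not analysed here under those names. Another 6 genes lay below the filter on low counts, which left 35 genes tested among 10576 rows.

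In this pathway a cytokine binds a receptor that has no kinase activity of its own, and Janus kinases bound to the receptor phosphorylate it and the STAT proteins it recruits. Phosphorylated STATs pair, enter the nucleus and activate genes, among them the SOCS genes, whose products bind receptors or Janus kinases and shut the signal down. In humans IL-26 signals through the receptor subunits IL-20RA and IL-10RB, mainly to STAT3, and cytokines of the IL-10 and IL-6 families that use STAT3 are known for acting on the gut epithelium in defence and repair. Activation of the pathway is a change in phosphorylation, which transcript levels do not measure.

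Library totals lay between 15156164 and 22219894 counts, spread over 12323 to 12613 rows. The enterocyte gene *vil1* had 3042 to 3363 normalized CPM (counts scaled by the TMM-adjusted library size) in rzIl26 libraries and 2872 to 3198 CPM in BSA libraries, so gut tissue was present in every library. Of the gut epithelium genes read here, *fabp2* was hardly detected, at 0.17 to 1.66 CPM over the libraries, and *cdx1b*, the next lowest, had 79.5 to 101.5 CPM. Genes of the neighbouring liver and exocrine pancreas were also present. The summed level of 11 liver genes was 1388 to 5830 CPM after rzIl26 and 1674 to 5259 CPM after BSA, high in rzIl26 replicates 2 and 3 and in BSA replicate 2. Over all rows, 1995 of 10576 (18.9%) passed the threshold, an adjusted p-value under 0.05 by edgeR's quasi-likelihood test with Benjamini-Hochberg adjustment, and every adjusted p-value below comes from that fit unless another is named.

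Of the 35 JAK-STAT genes tested, 9 were higher after rzIl26 and 2 were lower. The share higher was 25.7%, against 9.27% of all rows, and the share lower was 5.71%, against 9.6% of all rows. The genes that rose were the receptor subunits *il6st* and *il13ra1*, the transcription factor *stat3*, the feedback inhibitors *socs1a*, *socs3a* and *socs3b*, and the targets *pim1*, *pim2* and *mcl1b*. The growth hormone receptor gene *ghrb* and the phosphatase gene *ptpn6* fell. The median log2 fold change was 0.22 over the tested genes and 0.01 over all rows. Libraries of the 2 groups did not overlap in 13 genes that were higher and 5 that were lower after rzIl26, and over all rows they did not overlap in 39.6%, with 18.7% higher and 20.9% lower. By role, the calls were 2 higher and 1 lower of 9 receptors, none of 3 kinases, 1 higher of 5 STATs, 3 higher of 7 SOCS genes, 1 lower of 5 phosphatase and PIAS genes, and 3 higher of 6 targets. Most calls were changes of less than 2-fold, since the log2 fold change was at least 1 in *socs3a* and at most -1 in *ghrb* and lay between these bounds in the rest.

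**Figure D1:**
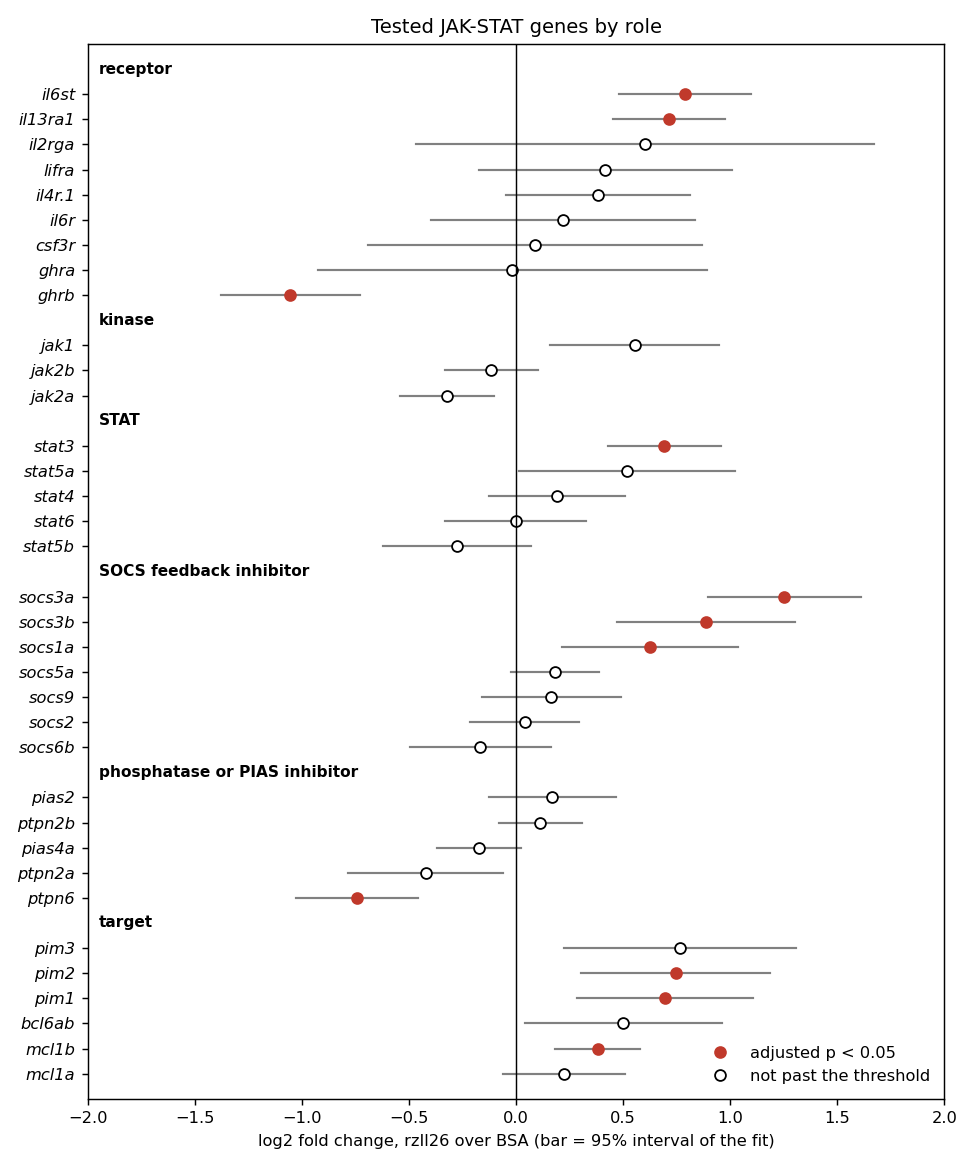
Log2 fold change (horizontal axis, rzIl26 over BSA) of the 35 tested JAK-STAT genes, grouped by role and sorted within each role, with the 95% interval of the fit as a bar. Filled points passed the threshold. *socs3a* stood highest at 1.25 and *ghrb* lowest at -1.05, and each role other than the kinases held at least 1 filled point.

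In bulk tissue, fewer cells of a type and less RNA per cell cannot be told apart, and this holds for every level given here. Scaling also matters for the direction of small differences. When libraries were scaled by their totals alone, the log2 fold changes shifted up by a median of 0.16, and 13 of the genes were higher and 2 lower. Over all rows this scaling called 1783 of 10576 higher and 400 lower, against 980 and 1015 with TMM. The fold changes below are therefore relative to the typical transcript. The rows lie on RefSeq transcripts, and no sequence was used here to test how alike the copies of a gene are. The zebrafish genome carries many genes related to *pim1*, and reads shared between copies were handled in a way that is not given in the sources used here, so the values of paired copies and of the *pim* genes are uncertain to that extent.

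Among the receptors, *il6st* rose after rzIl26. It encodes gp130, the signalling subunit that receptors of the IL-6 family share. *il6st* (NM_001113504) had 38.4, 45.9 and 40.6 CPM in rzIl26 replicates 1 to 3, against 19.9, 27.1 and 25.4 CPM in BSA replicates 1 to 3. The lowest rzIl26 library lay above the highest BSA library, and the means were 41.6 ± 3.9 and 24.1 ± 3.7 CPM (SD, n = 3 each). The log2 fold change was 0.79 (SE 0.13, edgeR adjusted p = 0.011), a 1.73-fold higher level.

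*il13ra1*, a subunit of the receptor that binds IL-13 and also, together with the IL-4 receptor chain, IL-4, was 1.64-fold higher. *il13ra1* (NM_001110837) had 82.7, 88.8 and 70.1 CPM after rzIl26, against 47.1, 54.1 and 46.3 CPM after BSA. The groups were clearly apart, with a log2 fold change of 0.71 (SE 0.11, edgeR adjusted p = 0.010). Its partner *il4r.1* (NM_001013282) had 14.8, 21.2 and 14.8 CPM after rzIl26, against 10.8, 14.7 and 13.5 CPM after BSA. The lowest rzIl26 value lay just above the highest BSA value, and the log2 fold change of 0.38 did not pass (edgeR adjusted p = 0.184).

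The growth hormone receptor gene *ghrb* fell to 0.482 of its BSA level. Growth hormone signals through JAK2 and STAT5 and is best known for liver and growth. *ghrb* (NM_001111081) had 41.0, 34.5 and 34.3 CPM after rzIl26, against 76.5, 63.2 and 88.2 CPM after BSA. Every rzIl26 library lay below every BSA library, with a log2 fold change of -1.05 (SE 0.14, edgeR adjusted p = 0.006), and 0.917% of all rows had a lower one. With the level of the liver genes entered as a covariate, the log2 fold change was -0.97. The part of liver RNA in this difference was not tested further. The second copy, *ghra*, was hardly detected, with 0.68 to 1.69 CPM after rzIl26 and 0.83 to 1.30 CPM after BSA.

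The other tested receptors did not pass the threshold and overlapped between the groups. Their log2 fold changes were 0.22 for *il6r*, the chain that captures IL-6, 0.42 for *lifra*, a receptor of leukaemia inhibitory factor, 0.09 for *csf3r*, the receptor of G-CSF on neutrophils, and 0.60 for *il2rga*, the gamma chain shared by receptors of lymphocyte cytokines. *il2rga* and *csf3r* had 13 to 37 counts in a library, so the intervals were wide, from -0.47 to 1.67 for *il2rga* and from -0.69 to 0.87 for *csf3r*. The leptin receptor gene *lepr* was listed at 0 counts in every library. A count of 0 allows up to 3 counts, which is 0.129 to 0.199 CPM depending on the library, and this limit covers counting error only.

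None of the 3 tested Janus kinase genes passed the threshold, although 1 was higher and 1 lower when p-values under 0.05 were taken without adjustment. *jak1*, the kinase that gp130 and the receptors of the IL-10 family use, had (NM_131073) 65.9, 106.6 and 92.5 CPM after rzIl26, against 57.9, 65.2 and 57.7 CPM after BSA. All rzIl26 libraries were above all BSA libraries, but rzIl26 replicate 1 lay just above BSA replicate 2. The log2 fold change was 0.55 (SE 0.17, 95% interval 0.16 to 0.95, edgeR adjusted p = 0.059). Over 16 alternatives the adjusted p-value lay between 0.0117 and 0.163, and the call was made in 5 and not in the other 11. The adjusted p-value was 0.0117 without rzIl26 replicate 1, 0.0126 with DESeq2, 0.0404 with the liver genes as a covariate and 0.0677 with limma-voom.

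*jak2a* and *jak2b* are the copies of JAK2, the kinase of growth hormone, prolactin and erythropoietin receptors. *jak2a* (NM_131093) had 40.4, 43.3 and 47.3 CPM after rzIl26, against 57.5, 50.3 and 56.0 CPM after BSA. The groups did not overlap, and the log2 fold change of -0.32 (SE 0.09) had an edgeR adjusted p of 0.0504, just over the threshold. The call was made in 3 of 16 alternatives, among them DESeq2 (adjusted p = 0.0448) and limma-voom (adjusted p = 0.045), and the range over the 16 was 0.0402 to 0.26. *jak2b* (NM_131087) had 27.3, 28.1 and 31.8 CPM after rzIl26, against 29.9, 30.8 and 33.8 CPM after BSA. Its groups overlapped, with a log2 fold change of -0.12 (95% interval -0.33 to 0.10).

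Of the STAT genes, *stat3* alone passed the threshold. STAT3 is the main factor downstream of gp130 and of the IL-10 family. *stat3* (NM_131479) had 89.1, 115 and 91.0 CPM in rzIl26 replicates 1 to 3, against 59.5, 58.6 and 64.4 CPM in BSA replicates 1 to 3. The BSA libraries lay close together and all rzIl26 libraries were well above them. The means were 98.3 ± 14.4 and 60.8 ± 3.1 CPM (SD, n = 3 each), a log2 fold change of 0.69 (SE 0.11, edgeR adjusted p = 0.011) or 1.62-fold.

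*stat5a* and *stat5b*, the factors of growth hormone and prolactin signalling, were low. *stat5a* (NM_194387) had 5.99, 5.88 and 6.53 CPM after rzIl26, against 4.37, 5.51 and 3.05 CPM after BSA. No rzIl26 library fell into the BSA range, yet the gene did not pass (log2 fold change 0.52, SE 0.22, edgeR adjusted p = 0.135). *stat5b* (NM_001003984) had 5.86, 5.84 and 6.58 CPM after rzIl26, against 6.20, 7.90 and 8.06 CPM after BSA. These groups overlapped, with a log2 fold change of -0.28 (SE 0.15, edgeR adjusted p = 0.231).

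*stat4*, the factor of IL-12 signalling, and *stat6*, the factor of IL-4 and IL-13 signalling, both overlapped between groups. *stat4* (NM_001004510) had 39.4, 27.6 and 30.4 CPM after rzIl26, against 27.9, 29.6 and 27.7 CPM after BSA, so rzIl26 replicate 1 alone stood high. *stat6* (NM_001130590) had 15.6, 16.6 and 21.6 CPM after rzIl26, against 19.4, 17.3 and 17.1 CPM after BSA. The 95% intervals of their log2 fold changes were -0.13 to 0.51 for *stat4* and -0.33 to 0.33 for *stat6*. The STAT genes outside the set, *stat1a*, *stat1b* and *stat2*, the factors of interferon signalling, did not pass either, with log2 fold changes of -0.07, 0.36 and -0.23 and overlapping groups.

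**Figure D2:**
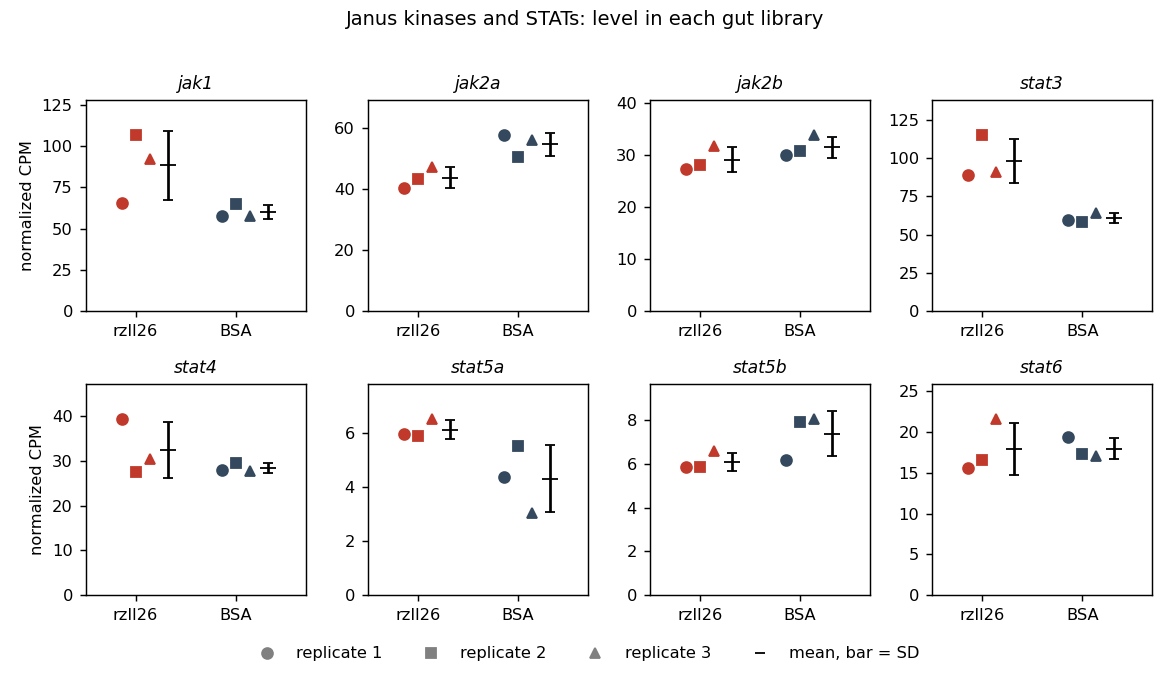
Normalized CPM (vertical axes, from 0) of the 3 Janus kinase genes and 5 STAT genes in each gut library, with rzIl26 in red on the left of each panel and BSA in dark blue on the right. Symbols give the replicate, and bars the mean and SD of 3 libraries. In *stat3* the rzIl26 libraries (89.1 to 115 CPM) lie apart from the BSA libraries (58.6 to 64.4 CPM), whereas in *jak1* rzIl26 replicate 1 lies beside the BSA libraries.

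The SOCS genes held the highest fold change of the set. SOCS3 blocks signalling by gp130 and by some other receptors that activate STAT3, and SOCS1 blocks Janus kinases in interferon signalling in particular. *socs3a* (NM_199950) had 509, 505 and 359 CPM in rzIl26 replicates 1 to 3, against 182, 219 and 176 CPM in BSA replicates 1 to 3. The lowest rzIl26 library, replicate 3, was still far above the highest BSA library. The log2 fold change was 1.25 (SE 0.15, edgeR adjusted p = 0.005), and 192 of the 10576 rows (1.82%) had a higher one.

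The second SOCS3 copy, *socs3b*, rose as well, 1.85-fold. *socs3b* (NM_213304) had 110.0, 149 and 113 CPM after rzIl26, against 52.5, 79.6 and 69.5 CPM after BSA. The groups did not overlap, and replicate 2 was the highest library in both. The log2 fold change was 0.89 (SE 0.18, edgeR adjusted p = 0.017). Its adjusted p-value was 0.0555 without BSA replicate 3, 0.0522 without rzIl26 replicate 2 and 0.05004 without BSA replicate 1, and it stayed under the threshold in the 13 other alternatives.

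*socs1a* rose 1.54-fold with less margin. *socs1a* (NM_001003467) had 33.1, 40.8 and 28.7 CPM after rzIl26, against 18.2, 26.8 and 21.6 CPM after BSA. The gap between the lowest rzIl26 library and the highest BSA library was small, and the log2 fold change was 0.63 (SE 0.18, edgeR adjusted p = 0.046). The call was lost in 5 of 16 alternatives. The adjusted p-value was 0.132 without BSA replicate 1, 0.131 without BSA replicate 3, 0.0719 without rzIl26 replicate 1, 0.133 without rzIl26 replicate 2 and 0.0522 with the liver genes as a covariate.

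The other 4 tested SOCS genes overlapped between the groups and did not pass. Their log2 fold changes were 0.04 for *socs2*, a regulator of growth hormone signalling, 0.18 for *socs5a*, -0.17 for *socs6b* and 0.16 for *socs9*. The 95% intervals reached from -0.22 to 0.29 for *socs2* and from -0.03 to 0.39 for *socs5a*. Below the filter, *socs4* had 5, 5 and 2 counts after rzIl26, against 12, 6 and 12 counts after BSA. *socs7* had 3 to 8 counts in a library, *socs1b* had 1 count in all, and *socs5b* was listed at 0. The name *cish* is listed in the name table as an older name of *cisha*. *cisha* and its copy *cishb* lie outside the set and were added after the values were seen. *cisha* (NM_001076617) had 114, 103 and 62.9 CPM after rzIl26, against 72.9, 95.9 and 79.0 CPM after BSA, and *cishb* (NM_001114554) had 2.34 to 4.68 CPM after rzIl26 and 2.94 to 5.57 CPM after BSA. Both overlapped between the groups, with log2 fold changes of 0.18 for *cisha* and -0.33 for *cishb*.

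Of the 5 tested phosphatase and PIAS genes 1 fell and none rose. *ptpn6* encodes SHP-1, a phosphatase that dephosphorylates receptors and Janus kinases and is most abundant in blood cells. *ptpn6* (NM_199960) had 18.2, 15.3 and 20.3 CPM after rzIl26, against 32.5, 28.2 and 29.2 CPM after BSA. All rzIl26 libraries were below all BSA libraries, and the log2 fold change was -0.74 (SE 0.12, edgeR adjusted p = 0.011). The sum of 4 neutrophil genes was higher after rzIl26, at 18.7 to 38.2 CPM, against 5.47 to 8.30 CPM after BSA. Most of that sum was 1 gene, *mmp13a*, and the other tested neutrophil genes, *lyz* and *npsn*, overlapped between the groups. The part of neutrophils in the difference of *ptpn6* was not tested.

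*ptpn2a* and *ptpn2b* are copies of the phosphatase that acts on JAK1, JAK3 and nuclear STATs. *ptpn2a* (NM_200466) had 7.47, 5.45 and 7.67 CPM after rzIl26, against 9.06, 9.43 and 8.98 CPM after BSA. The groups did not overlap, but the log2 fold change of -0.42 (SE 0.16) did not pass (edgeR adjusted p = 0.099). *ptpn2b* overlapped, with a log2 fold change of 0.11. Of the PIAS genes, whose products attach SUMO and restrain STATs in the nucleus, *pias2* overlapped, with a log2 fold change of 0.17, and did not pass. *pias4a* had 25.5, 28.1 and 28.8 CPM after rzIl26, against 32.7, 30.5 and 29.8 CPM after BSA. Its groups did not overlap, but the log2 fold change of -0.17 (SE 0.08) did not pass (edgeR adjusted p = 0.191).

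Of the STAT targets, all 6 tested genes had log2 fold changes above 0, and 3 passed. The PIM kinases promote cell survival and growth and are turned on by STAT3 and STAT5. *pim1* (NM_001077391) had 172, 259 and 189.5 CPM after rzIl26, against 113, 152 and 119 CPM after BSA. *pim2* (NM_131539) had 31.6, 31.7 and 24.8 CPM after rzIl26, against 20.5, 19.3 and 12.8 CPM after BSA. In both genes the groups did not overlap, and the log2 fold changes were 0.70 (SE 0.18) for *pim1* and 0.75 (SE 0.19) for *pim2*, each with an edgeR adjusted p of 0.034. *pim3* (NM_001034978) had 11.5, 21.1 and 13.7 CPM after rzIl26, against 7.86, 9.63 and 9.86 CPM after BSA. It did not overlap either, but rzIl26 replicate 2 stood far above the other libraries, and the log2 fold change of 0.77 (SE 0.23) did not pass (edgeR adjusted p = 0.057). Over 16 alternatives the adjusted p-value of *pim3* lay between 0.0112 and 0.168, and the call was made in 4.

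*mcl1b*, a gene of the MCL1 family that protects cells from apoptosis, was 1.30-fold higher. *mcl1b* (NM_194394) had 97.1, 102 and 88.7 CPM after rzIl26, against 77.8, 69.0 and 74.0 CPM after BSA. The spread within groups was small, and the log2 fold change was 0.38 (SE 0.09, edgeR adjusted p = 0.023). Its copy *mcl1a* overlapped, with a log2 fold change of 0.22 (95% interval -0.06 to 0.51). *bcl6ab*, a copy of the repressor BCL6, had 43.4, 33.6 and 44.8 CPM after rzIl26, against 25.3, 23.2 and 37.3 CPM after BSA. BSA replicate 3 lay within the rzIl26 range, and the log2 fold change of 0.50 did not pass (edgeR adjusted p = 0.117). Without that library the adjusted p-value was 0.0375, and the range over 16 alternatives was 0.0375 to 0.284. *bcl6aa* had 5 to 8 counts in a library and was not tested.

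The calls of *pim1*, *pim2* and *mcl1b* were lost in several of the fits that left out 1 library, whereas those of *stat3* and *socs3a* were kept in all 6. Such fits called 339 to 874 rows higher over all rows, against 980 with all 6 libraries. For *pim1* the adjusted p-value was 0.114 without BSA replicate 1, 0.111 without BSA replicate 3, 0.0789 without rzIl26 replicate 2 and 0.0585 without rzIl26 replicate 3. For *pim2* it was 0.0571, 0.0655 and 0.0558 without BSA replicates 1, 2 and 3, and 0.0703 and 0.103 without rzIl26 replicates 1 and 2. For *mcl1b* it was 0.0569, 0.0799 and 0.0679 without BSA replicates 1, 2 and 3, and 0.0748 without rzIl26 replicate 2. In each of these fits the fold change kept its sign.

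**Figure D3:**
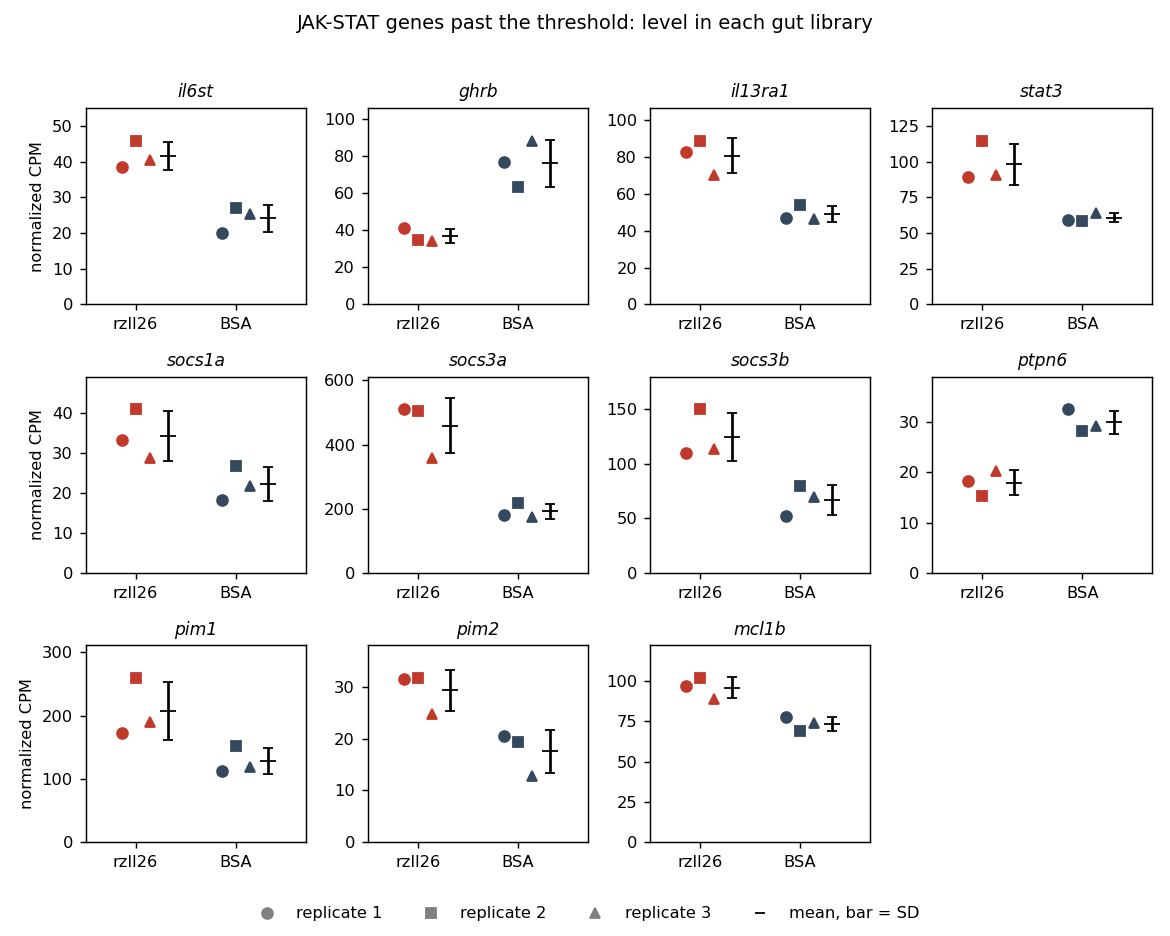
Normalized CPM (vertical axes, from 0) of the 11 JAK-STAT genes past the threshold in each gut library, with rzIl26 in red on the left and BSA in dark blue on the right of each panel. Symbols give the replicate, and bars the mean and SD of 3 libraries. No panel shows an overlap, *ghrb* and *ptpn6* are the panels in which rzIl26 lies below BSA, and the gap is narrowest in *socs1a* (28.7 against 26.8 CPM).

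Most of the genes that rose had the same highest library within the rzIl26 group. In 8 of the 9 genes rzIl26 replicate 2 was the highest of its group, whereas it was the highest in 50.6% of the 980 rows called higher over all rows. BSA replicate 2 was the highest of its group in 6 of the 9, against 41.7% of those rows. Replicate 2 was high in the liver genes in both groups, along with rzIl26 replicate 3, which was the highest library in none of the 9. The part of liver RNA in the rise was not tested beyond the fit with the liver genes as a covariate. In that fit 9 of the genes were called higher, 8 of them called without the covariate, *socs1a* being the one lost and *jak1* the one gained. Over all rows the fit called 872 of 10576 higher, against 980 without the covariate.

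Ratios of 2 genes within a library do not depend on how libraries are scaled. Of 10 pairs of gene copies, 6 had both copies tested. With 3 libraries against 3 a two-sided exact permutation test cannot give a p-value below 0.1, so no ratio could pass. The log2 ratio of *stat5a* to *stat5b* was 0.03, 0.01 and -0.01 in rzIl26 libraries, against -0.50, -0.52 and -1.40 in BSA libraries. The rzIl26 libraries agreed closely and lay above all BSA libraries, by 0.81 on average (exact permutation p = 0.1, adjusted 0.2 over 6 pairs). The ratios of *jak2a* to *jak2b* and of *ptpn2a* to *ptpn2b* were lower in every rzIl26 library than in every BSA library, with differences of -0.21 and -0.54 (each exact permutation p = 0.1, adjusted 0.2). The ratios of *socs3a* to *socs3b* (0.35), *ghra* to *ghrb* (0.94) and *mcl1a* to *mcl1b* (-0.17) overlapped between the groups, with exact permutation p-values of 0.3, 0.3 and 0.4.

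Another 12 ratios set *stat3*, *socs3a* and *jak1* against genes of the same role, and these were chosen after the values were seen. The log2 ratio of *socs3a* to *socs2* was 5.06, 5.13 and 4.85 in rzIl26 libraries, against 3.72, 4.06 and 3.65 in BSA libraries, a difference of 1.21. *socs3a* was higher in every rzIl26 library than in every BSA library also relative to *socs1a*, *socs5a*, *socs6b* and *socs9*, by 0.62 to 1.40. *stat3* was higher without overlap relative to *stat1a* (0.75), *stat5b* (0.95) and *stat6* (0.70), but overlapped relative to *stat4* (0.51) and *stat5a* (0.14). *jak1* was higher without overlap relative to *jak2a* (0.85) and *jak2b* (0.64). Each ratio without overlap had an exact permutation p of 0.1, the smallest possible, and 0.12 after adjustment over the 12. Because the same values guided the choice, these p-values only describe the ratios and add no test.

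**Figure D4:**
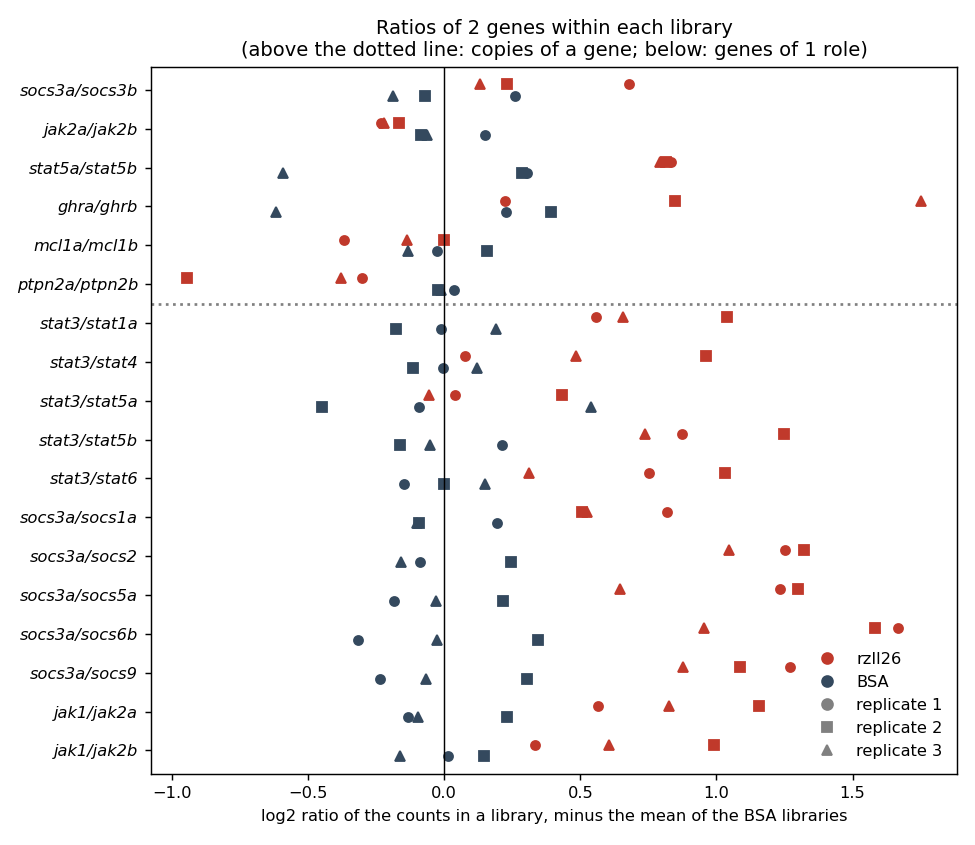
Log2 ratio of the counts of 2 genes in each library (horizontal axis), minus the mean of the BSA libraries, with rzIl26 in red above BSA in dark blue in each row and symbols for the replicate. Above the dotted line are 6 pairs of gene copies, below it 12 pairs of genes with 1 role. The rzIl26 points lie to the right of all BSA points in *stat5a*/*stat5b* and in every *socs3a* ratio below the line, and overlap with them in *socs3a*/*socs3b* and *stat3*/*stat5a*.

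Other genes of the pathway were read from hand-written lists. These lists, and the marker lists below, were written with earlier results of these data known, so their shares are descriptions only. Of 33 ligand genes 26 had a row and 9 were tested, and 3 of these rose (33.3%, against 9.27% of all rows) and none fell (against 9.6% of all rows), with a median log2 fold change of 1.07. *csf3b*, a G-CSF gene whose product binds the receptor encoded by *csf3r*, had 7.78, 7.04 and 5.60 CPM after rzIl26, against 1.04, 2.06 and 0.88 CPM after BSA. The groups were far apart, with a log2 fold change of 2.39 (SE 0.31, edgeR adjusted p = 0.006). *crlf1a*, a gene for a secreted partner of gp130 cytokines, had 37.2, 41.6 and 41.1 CPM after rzIl26, against 11.1, 17.7 and 13.2 CPM after BSA (log2 fold change 1.52, SE 0.16, edgeR adjusted p = 0.005). *m17*, a fish cytokine of the IL-6 family, had 1.24 to 1.67 CPM after rzIl26 and 0.46 to 0.83 CPM after BSA (log2 fold change 1.06, SE 0.30, edgeR adjusted p = 0.048).

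A receptor subunit gene and the gene of IL-26 itself were among these lists, whereas *il10rb*, the other subunit, had no row under that name. *il20ra* (NM_001079676) had 51.3, 43.0 and 54.2 CPM after rzIl26, against 68.1, 57.7 and 65.4 CPM after BSA. Every rzIl26 library was lower, but the log2 fold change of -0.37 did not pass (edgeR adjusted p = 0.061). Per the study, qRT-PCR showed a strong rise of *il20ra* after rzIl26 in guts of WT larvae of the same age and time after injection. The counts here went the other way, and the cause of this difference was not tested. *crfb4*, a class II cytokine receptor gene named after its values were seen, had 8.33, 9.40 and 8.49 CPM after rzIl26, against 10.4, 13.5 and 11.7 CPM after BSA. Whether *crfb4* is *il10rb* under another name was not checked here. *crfb4* was also lower in every rzIl26 library and did not pass (log2 fold change -0.44, edgeR adjusted p = 0.056). *il26* had 1, 2 and 21 counts after rzIl26, against 0, 4 and 0 counts after BSA, below the filter, and rzIl26 replicate 3 held most of them. Of 33 other receptor genes 18 were tested and 1 rose, *csf2rb*, a shared chain of haematopoietic cytokine receptors (log2 fold change 0.78, SE 0.21, edgeR adjusted p = 0.044). None of the 18 fell. The share higher was 5.56%, against 9.27% of all rows, the share lower over all rows was 9.6%, and the median of the 18 was 0.06.

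Of 11 other inhibitor genes 3 were tested, and 2 of them rose (against 9.27% of all rows). *cbl*, a ubiquitin ligase that removes activated receptors, and *ptpn11b*, a copy of the phosphatase SHP-2, which in many pathways promotes signalling, both rose with a log2 fold change of 0.48 (edgeR adjusted p = 0.020 for *cbl* and 0.038 for *ptpn11b*). Of 7 tested adaptor genes, which carry the signal to other pathways, 2 fell (28.6%, against 9.6% of all rows): *sos1*, an activator of RAS, by 0.43, and *stam2*, a sorting protein that binds Janus kinases, by 0.35 on the log2 scale (edgeR adjusted p = 0.016 for *sos1* and 0.041 for *stam2*).

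Of 20 tested STAT target genes outside the set, 7 rose (35%, against 9.27% of all rows) and 1 fell (5%, against 9.6% of all rows), with a median log2 fold change of 0.61. Of the genes that rose, the 4 with the lowest adjusted p-values were *junba* (1.33) and *junbb* (1.33), subunits of the AP-1 factor, *saa* (1.83), an acute phase gene, and *ccnd1* (0.35), which encodes cyclin D1. *junbb* had 391, 497 and 297 CPM after rzIl26, against 166, 195 and 109.8 CPM after BSA, without overlap. *myca*, a copy of MYC, fell by 1.29 on the log2 scale (SE 0.10, edgeR adjusted p = 0.003), with 18.3, 15.3 and 15.1 CPM after rzIl26, against 39.5, 41.4 and 38.4 CPM after BSA. Many of these genes are also induced by other pathways, and the list does not separate them. As with the other lists, earlier results were known when it was written.

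Markers of other cell types were read in the same fit. Of 3 tested neutrophil genes 1 was higher (33.3%, against 9.27% of all rows), *mmp13a* (log2 fold change 2.31, edgeR adjusted p = 0.011). It took most of the neutrophil sum with 15.2, 32.4 and 12.3 CPM after rzIl26, against 3.65, 5.18 and 3.46 CPM after BSA. The other tested neutrophil genes did not pass, with log2 fold changes of 1.16 for *lyz* (edgeR adjusted p = 0.061) and 0.48 for *npsn*, and the median of the 3 was 1.16. The peroxidase gene *mpx* had at most 2 counts in a library. None of the 2 tested macrophage genes and none of the 2 tested lymphocyte genes passed, their sums overlapped between the groups (8.59 to 12.5 CPM after rzIl26 and 8.75 to 11.3 CPM after BSA for 3 macrophage genes), and *mpeg1.1* and *lck* were listed at 0. None of 9 liver, 10 exocrine pancreas and 5 skeletal muscle genes passed. Of 4 epidermis and fin genes 2 were higher (50%, against 9.27% of all rows), *and2* and *and1*. *and2* had 25.6, 28.4 and 47.2 CPM after rzIl26, against 1.72, 1.13 and 2.53 CPM after BSA. Its log2 fold change was 4.20 (SE 0.34, edgeR adjusted p = 0.003), and that of *and1* was 1.86 (SE 0.32, edgeR adjusted p = 0.012). *cyt1* and *fras1* overlapped between the groups and did not pass. The sum of 6 such genes was 107 to 215 CPM after rzIl26 and 38.9 to 91.3 CPM after BSA. The largest part of this sum was *cyt1*. Of 9 gut epithelium genes 2 were lower (22.2%, against 9.6% of all rows), *chia.2* and *apoa4b.1*. The sum of the 9 was 30437 to 35313 CPM after rzIl26 and 45253 to 47318 CPM after BSA. Its largest part was *chia.2*, with means of 14668 CPM after rzIl26 and 23431 CPM after BSA. By library, 4 of the 9 genes were lower without overlap, 1 was higher, and 4 overlapped, among them *vil1* and the hardly detected *fabp2*. The shares without overlap over all rows were 20.9% lower and 18.7% higher. The part of neutrophils, of epidermis and of the gut epithelium in the differences of the JAK-STAT genes was not tested.

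The calls differed in how often they were kept when 1 library was left out. Every such fit also called fewer rows higher and fewer lower over all rows than the fit of all 6 libraries. *il6st*, *il13ra1*, *stat3*, *socs3a*, *ghrb* and *ptpn6* stayed past the threshold in all 16 alternatives, including each fit that left out 1 library. Over those 6 fits the log2 fold change lay between 1.17 and 1.40 for *socs3a*, between 0.56 and 0.76 for *stat3*, between 0.66 and 0.88 for *il6st*, and between -1.17 and -0.93 for *ghrb*. The number of JAK-STAT genes called higher was 4 without BSA replicate 1, 5 without BSA replicate 3 and 4 without rzIl26 replicate 2, and 7 to 9 without each of the other 3 libraries. Over all rows, 339 of 10695, 453 of 10693 and 404 of 10645 were called higher without those libraries in the same order. Without the other 3 libraries 481 to 874 rows were called higher, and with all 6 libraries 980 of 10576. The number of JAK-STAT genes called lower was 2 in each of the 6 fits, and 398 to 940 rows were called lower over all rows.

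**Figure D5:**
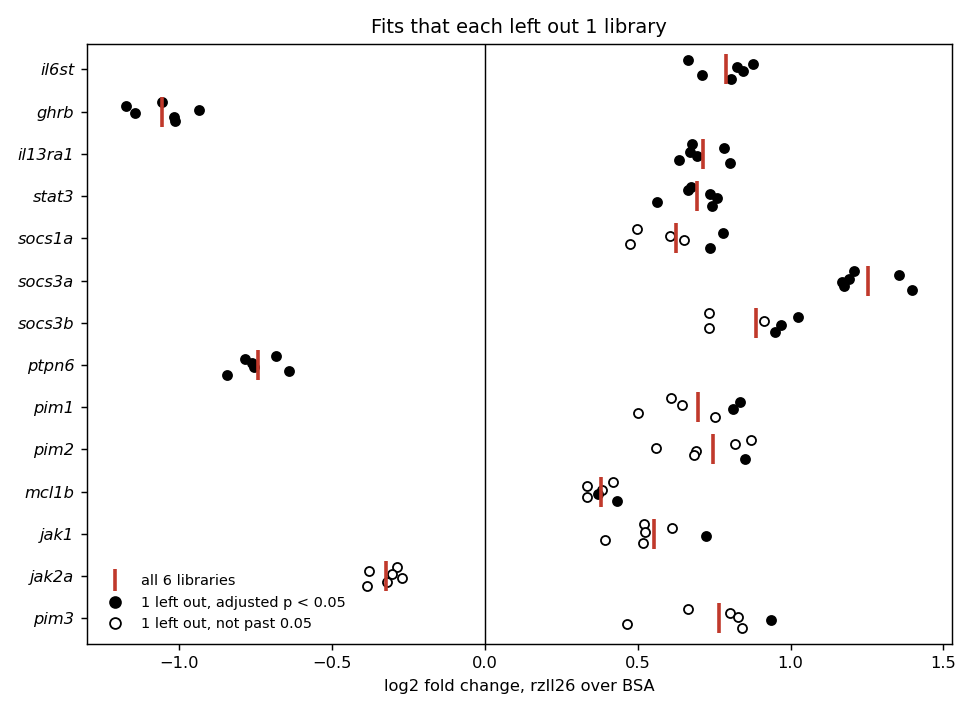
Log2 fold change (horizontal axis, rzIl26 over BSA) of the 11 genes past the threshold and of *jak1*, *jak2a* and *pim3*, in the fit of all 6 libraries (red line) and in the 6 fits that each left out 1 library (points, filled where the adjusted p-value was under 0.05). All points keep the side of 0 of the red line, and all 6 points are filled for *il6st*, *ghrb*, *il13ra1*, *stat3*, *socs3a* and *ptpn6*.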

How the data were processed

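Stranded poly(A) RNA-seq libraries of dissected guts were sequenced as paired-end reads and aligned by the authors to danRer11, per the labels. The authors deposited 1 table of raw counts per RefSeq transcript (16134 rows) with 1 column per library. The counting tool and the handling of reads shared by transcripts are not given in the sources used here. Columns were matched to libraries by the library names in the labels.

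Gene symbols were taken from RefSeq annotation of GRCz12tu, without its coordinates, and were found for 15776 rows. Members were matched by current symbol, and each had 1 row. Some names are older names of other genes (*socs4* also of *socs9*, *stat5b* also of *stat5a*, *pim1* also of *pim2*, and *cish* of *cisha*). The analysis used edgeR 4.0.16 under R 4.3.3, with filterByExpr at a minimum count of 10, TMM scaling, the quasi-likelihood test with group as sole term, and Benjamini-Hochberg adjustment over 10576 rows. Standard errors and 95% intervals come from the F statistic. Ratios used counts plus 0.5. DESeq2 1.42.0 and limma 3.58.1 served as alternatives. The biological coefficient of variation was 0.163, and the scripts were tested on simulated data. The members, gene lists and alternatives were chosen with earlier results of these data known.

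Values in every library are given for members past the threshold, the tested JAK and STAT genes, *socs1a*, *socs3a* and *socs3b*, and of the other lists at most 4 genes past the threshold are named per direction, by adjusted p-value. No pair of libraries was a copy, with a chi-square per degree of freedom of at least 19.6. Search of promoters for STAT motifs was not run because no sequence was used here.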

Additional observations from a re-analysis of the deposited data

How the results depend on the processing

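Over the 35 genes and 16 alternatives, 506 of 560 fold changes kept their sign and their side of the threshold, 21 called genes lost the call, 16 gained it and 17 values changed sign, all in uncalled genes near 0. The sign changes were in *stat6* (0.0015 with RLE factors, 0.16 with library totals alone, 0.0045 with at least 10 counts in every library, 0.0014 with DESeq2, and -0.160 to 0.0857 when 1 library was left out), *ghra* (0.14 with library totals alone, -0.46 to 0.20 with 1 library left out), *jak2b* (0.042 with library totals alone), *csf3r* (-0.23 to 0.32), *il6r* (-0.0075 to 0.51) and *socs2* (-0.023 to 0.118, each with 1 library left out). Library totals alone gave 1783 rows higher and 400 lower over all rows (81.7% of calls higher, against 49.1% with TMM), because they leave out the TMM factors. Leaving out 1 library gave 339 to 874 rows higher and 398 to 940 lower, and 4 to 9 of the JAK-STAT genes higher, with fewer libraries to estimate the spread. JAK-STAT genes called higher were 13 with library totals alone, 11 with DESeq2, 12 with the replicate block and 9 in the other fits of all libraries, and genes called lower were 3 with upper-quartile factors, DESeq2 and limma-voom and 2 otherwise. Over all rows, 1783, 1103 and 883 were called higher in the fits named for genes higher, and 858 to 995 in the other fits of all libraries. Rows called lower were 1136, 1044 and 1078 in the fits named for genes lower, and 400 to 1015 in the other fits of all libraries. Whether the replicate numbers paired the samples could not be decided, since 3 libraries per group are too few. The deviations of same-numbered libraries correlated at 0.35, 0.15 and -0.0025, and 3 of 6 libraries correlated best with their own number. The replicate block gave 883 rows higher and 844 lower. Summing rows per gene could not change a ratio, since each member had 1 row. The alternatives were run for the members and the counts over all rows, not for the genes of other lists. The promoter motifs were not run, nor the second motif. Depth limits *ghra*, *il2rga* and *csf3r* and the 6 genes below the filter.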
